A study of Homo sapiens with 24 samples.

Results

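L-540 and SUP-HD1 are the Hodgkin lymphoma (HL) cell lines of this study that die when exposed to AEZS-136, a compound that inhibits both PI3K and ERK. The data described here are the difference between their transcriptional responses, meaning the change of each transcript in L-540 minus its change in SUP-HD1. The comparison used 12 of the 24 arrays of the series, 3 for each of 4 groups: L-540 control, L-540 AEZS-136, SUP-HD1 control and SUP-HD1 AEZS-136, all harvested after 24 hours, with AEZS-136 given at 10 μM to cells in culture and vehicle to the controls. Of the 47323 probes on the array, the 17242 that were detected above background (detection value over 0.99) on at least 3 of the 12 arrays were tested, and 13433 of them carried 1 gene symbol, for 10218 genes. Each line is a single established cell line, so a difference between the lines is one between these particular cultures, and the p-values measure the spread between the 3 arrays of a group. A legend in the study's supplement calls its microarray bars independent experiments, while the labels give a replicate number only.

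PI3K signals through AKT, which keeps FOXO transcription factors out of the nucleus and drives sterol and fatty acid synthesis through SREBP. ERK switches on immediate early genes and its own feedback phosphatases. HL cells are known to depend on NF-kB and JAK-STAT signaling and to secrete chemokines and cytokines that attract other leukocytes.

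All levels below are log2 signal after quantile normalization of the 12 arrays, a response is the treated minus the control mean on that scale, and each response or difference is given with its standard error from the fit. A probe was called changed at a Benjamini-Hochberg adjusted p (limma, over all 17242 probes) under 0.05 and an absolute log2 value of at least 0.4, and the same 2 limits were applied to the difference between the lines. Mean signals of the 12 arrays ranged from 306.1 to 360.9, and 29.7% to 33.7% of the probes were detected. Replicate arrays correlated at 0.991 to 0.996, control with treated arrays at 0.953 to 0.958 in L-540 and at 0.975 to 0.978 in SUP-HD1. The Hodgkin cell markers IRF4, TRAF1 and FSCN1 were detected on all control arrays of both lines. TNFRSF8, which encodes CD30, was detected in L-540 controls only (7.51) and not in SUP-HD1 controls (6.63), and CCL17 stood at 11.14 in SUP-HD1 controls and was not detected in L-540. Of 7 defining markers of fibroblasts, endothelium, monocytes, erythroid and epithelial cells, 1 passed the detection filter, CD14, detected on 1 of the 3 L-540 control arrays and none of SUP-HD1. The myeloid genes CD68 and CSF1R were detected on all control arrays of both lines, and CSF1R fell in L-540 (-0.75) without a called difference. The T cell marker CD2 (8.50 in L-540 and 7.41 in SUP-HD1 controls) and the B cell marker CD79A (7.05 and 7.59) were detected on all control arrays of both lines, and CD3D, CD3E, CD3G, CD7, MS4A1, CD79B and PAX5 did not pass the filter.

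AEZS-136 changed more probes in L-540 than in SUP-HD1. In L-540, 1975 probes rose (11.5% of those tested) and 2051 fell (11.9%), and in SUP-HD1 1345 rose (7.8%) and 1296 fell (7.52%). The response itself differed between the lines for 2562 probes (14.9%), of which 1309 were more positive in L-540 (7.59%) and 1253 more negative (7.27%). A further 1525 probes were called in the same direction in both lines, some of them among the differing probes because the sizes were unequal. A call in a single line did not by itself mark a difference: 1105 probes were called in L-540 and not in SUP-HD1, and 616 in SUP-HD1 and not in L-540, without a called difference. Read per gene, with the brightest probe of each gene, 13.4% of the genes rose and 13.3% fell in L-540, 9.38% rose and 7.71% fell in SUP-HD1, and 17.3% differed between the lines (8.42% more positive and 8.91% more negative in L-540).

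Most of the differing probes were called in L-540 and not in SUP-HD1. These L-540-only probes numbered 1346, of which 703 rose and 643 fell, whereas 450 were called in SUP-HD1 only, 254 rising and 196 falling. Another 50 were called in opposite directions, 20 higher in L-540 and lower in SUP-HD1 and 30 the reverse. In 285 probes the direction was shared and the change larger in L-540 (160 higher, 125 lower), in 24 it was larger in SUP-HD1 (11 higher, 13 lower), and 407 differed without a call in either line alone. The L-540-only changes were also larger, with a median response of 0.69 for those that rose and -0.70 for those that fell, against 0.59 and -0.58 for the SUP-HD1-only probes. Changes of at least 1 on the log2 scale were found in 128 rising and 123 falling L-540-only probes and in 15 rising and 18 falling SUP-HD1-only probes, and changes of at least 2 in 5, 37, 1 and 0 of them. In the line without a call, termed non-responding below, the 95% confidence interval of the change lay wholly within 0.4 of zero for most of these probes. That held for 985 of the 1346 L-540-only and 359 of the 450 SUP-HD1-only probes, and for the rest the interval reached past 0.4. Of the 985 and the 359, 609 and 181 were detected on all control arrays of both lines, and a change of the called size was outside their interval. Where the other line did not detect a probe, a narrow interval does not exclude a change. Because the classes were defined by these responses, the sizes are descriptions and not separate tests.

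**Figure D1:**
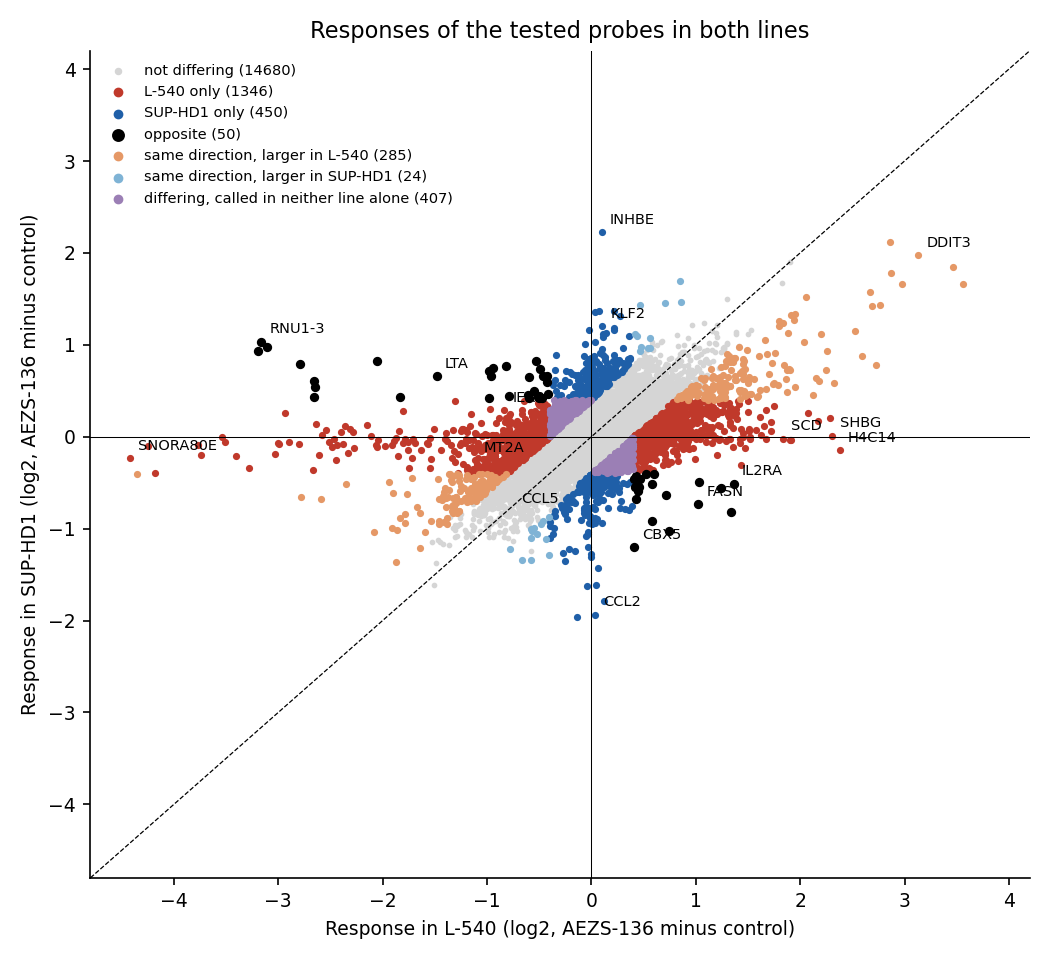
Response of each of the 17242 tested probes in L-540 (x axis) and SUP-HD1 (y axis), in log2 treated minus control, coloured by class with the number of probes in brackets; the dashed line marks equal responses. The 1346 L-540-only probes spread along the horizontal axis, the 450 SUP-HD1-only probes along the vertical axis, and the 50 opposite probes fill the upper left and lower right quadrants.

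The probes that changed in a single line often started higher in that line. Control levels and responses were computed from the same control arrays, and a fall can be seen only from a level above background. The counts of this paragraph are therefore descriptions and not separate tests. Control levels were called higher in L-540 for 18.9% of all tested probes (3259) and higher in SUP-HD1 for 20.1% (3471). Among the 643 L-540-only probes that fell, 404 were higher in L-540 controls and 61 in SUP-HD1 controls, with median control levels of 8.66 and 7.76. The 703 that rose were more even, with 215 higher in L-540, 132 higher in SUP-HD1 and 356 not called, and medians of 7.97 and 7.62. The SUP-HD1-only probes mostly started higher in SUP-HD1, at 145 of the 254 that rose and 134 of the 196 that fell. The non-responding line detected the probe on none of its 3 control arrays for 22.6% of the rising and 22.4% of the falling L-540-only probes, and for 31.1% and 41.3% of the SUP-HD1-only probes, against 10.9% of all tested probes in SUP-HD1 controls and 12.4% in L-540 controls. On none of the 6 arrays of the other line were 247 of the L-540-only and 146 of the SUP-HD1-only probes detected, so that no response could be measured there. Conversely, 947 L-540-only and 265 SUP-HD1-only probes were detected on all control arrays of both lines, and of these 609 and 181 had an interval within 0.4 of zero in the other line. All 50 opposite probes were detected on every control array of both lines.

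**Figure D2:**
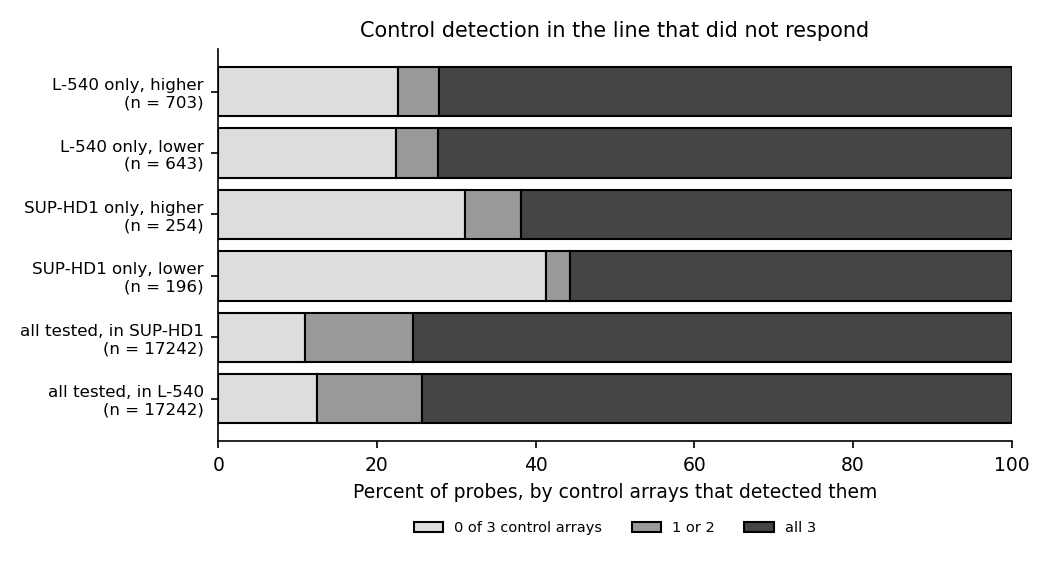
Percent of the probes of each single-line class that 0, 1 or 2, or all 3 control arrays of the non-responding line detected, with all 17242 tested probes in each line below. The share detected on no array is widest for the SUP-HD1-only probes that fell (41.3%).

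IER3, MT2A and CCL5 showed 3 forms of response. IER3, an immediate early gene with a role in cell survival (ILMN_1682717), stood at 11.14, 11.13 and 10.92 on the L-540 control arrays and at 10.18, 10.29 and 10.22 after AEZS-136. In SUP-HD1 it was dimmer throughout, at 7.97, 7.91 and 7.91 in controls and 8.18, 8.21 and 8.28 after treatment. The treated arrays lay below all controls in L-540 and above all controls in SUP-HD1. The response was -0.84 ± 0.08 in L-540 and 0.29 ± 0.08 in SUP-HD1, the latter below the size limit, and the difference was -1.13 ± 0.11 (limma adjusted p = 4.3e-07). MT2A, a metallothionein that binds zinc and other metals (ILMN_1686664), fell from 11.11, 11.26 and 11.39 to 9.96, 10.37 and 10.08 in L-540. SUP-HD1 arrays read 12.99, 12.56 and 12.60 in controls and 12.63, 12.58 and 12.15 after treatment, with overlapping groups. The difference of -0.86 ± 0.19 passed the limma test (adjusted p = 0.0031) and was not called by the methods' t-test. CCL5, a T cell-attracting chemokine (ILMN_2098126), fell in both lines, with responses of -0.76 ± 0.11 in L-540 and -0.81 ± 0.11 in SUP-HD1. Its difference was 0.06 ± 0.15 (adjusted p = 0.86), with a 95% confidence interval of -0.27 to 0.38.

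Genes of fatty acid and sterol synthesis that differed all responded more positively in L-540. Of 16 tested genes, 7 rose and 0 fell in L-540, 1 rose and 4 fell in SUP-HD1, and 8 differed, all more positive in L-540 (50% of the list, against 17.3% of all genes). The median response was 0.12 in L-540 and -0.15 in SUP-HD1. Shares of the gene lists below stand against the same 17.3%, and those of probe groups against 14.9% of all tested probes. SCD, the stearoyl-CoA desaturase, read 10.22, 10.04 and 10.26 in L-540 controls and, somewhat higher, 10.60, 10.95 and 10.58 in SUP-HD1 controls. After AEZS-136 it reached 11.95, 11.95 and 12.10 in L-540 and read 10.70, 10.42 and 10.96 in SUP-HD1. That is a 3.56-fold rise in L-540 and a 95% interval of -0.27 to 0.23 on the log2 scale in SUP-HD1 (difference 1.85 ± 0.17, adjusted p = 1.5e-07). FASN, the fatty acid synthase, moved in opposite directions. It rose from 11.30, 10.84 and 11.15 to 12.31, 11.88 and 12.17 in L-540 and fell from 10.45, 10.15 and 10.35 to 9.56, 9.61 and 9.58 in SUP-HD1, without overlap in either line (difference 1.76 ± 0.16, adjusted p = 2.2e-07). ACACA, which makes malonyl-CoA for FASN, rose by 0.83 ± 0.10 in L-540 and changed by -0.27 ± 0.10 in SUP-HD1. The regulators SREBF1 and INSIG1 rose by 0.81 ± 0.08 and 1.13 ± 0.14 in L-540, with -0.16 ± 0.08 and 0.06 ± 0.14 in SUP-HD1. LSS, the lanosterol synthase, rose in both lines, by 1.10 ± 0.08 and 0.47 ± 0.08, while the sterol enzymes DHCR7 and IDI1 fell in SUP-HD1 only (-0.54 ± 0.10 and -0.51 ± 0.08). For DHCR7 1 of 2 probes differed. HMGCS1, detected on all 12 arrays, stayed within 0.2 of zero in both lines. LPIN1, a phosphatidate phosphatase of lipid synthesis that also acts in the nucleus, is among the 6 L-540-only rises with the largest difference and read 9.14, 9.13 and 9.11 in L-540 controls, 10.87, 11.14 and 11.11 in treated L-540, 9.69, 10.03 and 9.87 in SUP-HD1 controls and 9.87, 9.73 and 9.90 in treated SUP-HD1. It was brighter in SUP-HD1 controls than in L-540 controls and above both SUP-HD1 groups after treatment in L-540.

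In the JAK-STAT list, IL2RA and PIM1 moved in opposite directions in the lines. Of 16 tested genes, 6 rose and 1 fell in L-540, 4 rose and 2 fell in SUP-HD1, and 6 were more positive and 1 more negative in L-540 (43.8%). IL2RA, the alpha chain of the interleukin-2 receptor (CD25), rose from 10.43, 10.42 and 10.61 to a mean of 11.85 ± 0.14 (SD, n = 3) in L-540 and fell from 9.49, 9.26 and 9.22 to 8.83, 8.91 and 8.70 in SUP-HD1, and the other IL2RA probe also differed in the same direction (0.65). PIM1, a survival kinase induced by STAT factors, went the other way, from 10.45, 10.45 and 10.46 to 9.50, 9.57 and 9.35 in L-540 and from 9.82, 9.45 and 9.30 to 10.08, 9.91 and 9.84 in SUP-HD1. The SUP-HD1 groups were separated by little, the highest control at 9.82 and the lowest treated array at 9.84, and the difference between the lines was -1.40 ± 0.15 (adjusted p = 1.8e-06). SOCS3, an inhibitor of JAK signaling, rose by 0.62 ± 0.11 in L-540 and changed by -0.26 ± 0.11 in SUP-HD1, while SOCS1, of the same family, fell in SUP-HD1 (-0.70 ± 0.10) and read 0.04 ± 0.10 in L-540. STAT3 and IL21R rose in L-540 only, by 0.70 ± 0.09 and 0.68 ± 0.08. For SOCS3 1 of 2 probes differed and for IL21R 1 of 3. CISH, a further member of the SOCS family, differed by 0.46 ± 0.11 with no call in either line (0.29 and -0.17), and this call was lost under cyclic loess normalization. SOCS2 rose in both lines and the difference was not called. The promoter of CISH is shown because it is dense in the TTCNNNGAA element that STAT factors bind, with each match in capitals, on either strand.
CISH (chr3:50611725-50612024, minus strand): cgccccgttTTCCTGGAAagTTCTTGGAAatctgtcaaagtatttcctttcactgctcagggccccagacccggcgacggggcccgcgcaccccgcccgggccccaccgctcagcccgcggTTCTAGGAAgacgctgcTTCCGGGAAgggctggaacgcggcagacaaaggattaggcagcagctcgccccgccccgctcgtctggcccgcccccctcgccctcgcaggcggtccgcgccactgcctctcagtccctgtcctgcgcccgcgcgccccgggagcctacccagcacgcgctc
The window, from RefSeq (GRCh38.p14), runs from 250 bases before to 50 after the annotated start. It holds 4 matches, between positions -241 and -112 from the start. Of 35116 such windows of all genes, 7.66% hold at least 1 match and 0.0199% hold 4 or more.

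**Figure D3:**
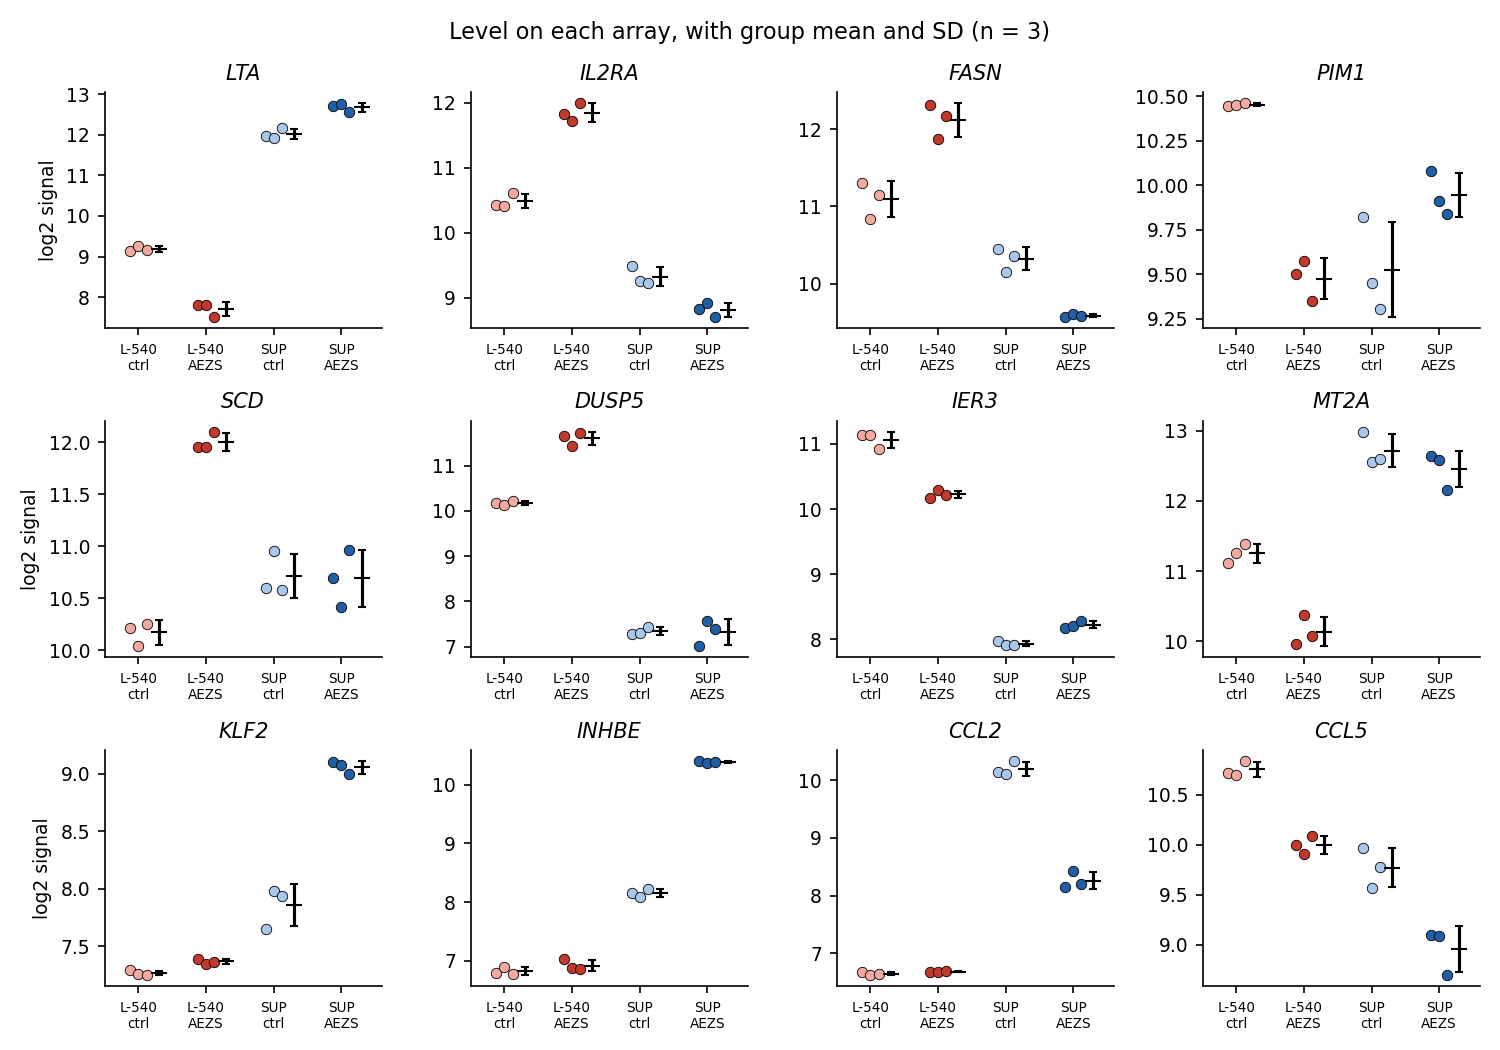
Level of 12 genes on each of the 12 arrays (y axis, log2 signal; each panel has its own range), for L-540 control, L-540 AEZS-136, SUP-HD1 control (SUP ctrl) and SUP-HD1 AEZS-136 (SUP AEZS); circles are arrays and bars the group mean with its SD. LTA, IL2RA, FASN and PIM1 moved in opposite directions in the lines, SCD, DUSP5, IER3 and MT2A were called in L-540 only, KLF2, INHBE and CCL2 in SUP-HD1 only, and CCL5 fell in both.

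Among the cytokines of Hodgkin cells, LTA stood out. It encodes lymphotoxin alpha, a ligand of the TNF receptors and an activator of NF-kB. L-540 controls read 9.13, 9.26 and 9.16 and treated L-540 arrays 7.79, 7.81 and 7.50, whereas SUP-HD1 controls read 11.97, 11.93 and 12.17 and treated SUP-HD1 arrays 12.71, 12.77 and 12.56. The L-540 response was -1.48 ± 0.10, the SUP-HD1 response 0.66 ± 0.10, and the difference of -2.14 ± 0.13 (adjusted p = 6e-10) widened a gap already present in controls (-2.84 ± 0.10, adjusted p = 1.9e-15). TNF fell in L-540 only (-0.60 ± 0.07 against -0.13 ± 0.07). IL6, a growth factor for B lineage cells, changed by 0.79 ± 0.08 in SUP-HD1 and the chemokine CCL1 by -0.47 ± 0.09. Both were called there, and neither was detected on any L-540 array, so no L-540 response could be measured. Without L-540 control replicate 2 the CCL1 difference was 0.38 and no longer called. CCL3 was not detected in L-540 controls and detected on all treated L-540 arrays, a rise of at least 1.46-fold, and it was not detected in SUP-HD1. In all, 12 of 21 listed cytokine genes were tested, and 5 differed (41.7%), 2 more positive and 3 more negative in L-540. CXCL10 and IL13 had no called response in SUP-HD1 and were detected on no L-540 array. CCL2, a monocyte chemoattractant, had the largest difference among the SUP-HD1-only falls, from 10.15, 10.10 and 10.34 to 8.15, 8.43 and 8.20, and its probe was not detected on any L-540 array. Among 15 NF-kB survival targets 5 differed (33.3%). CD83, a surface marker of activated antigen-presenting cells, fell in L-540 (-0.66 ± 0.09) and changed by 0.25 ± 0.09 in SUP-HD1, and both of its probes differed. With normexp background correction 2 of the 15 differed, and without SUP-HD1 control replicate 2 there were 8. IRF1, an interferon regulatory factor, fell in SUP-HD1 only (-0.44 ± 0.08). CFLAR and MCL1, which inhibit cell death, responded more in L-540 (1.66 ± 0.11 and 0.85 ± 0.09) than in SUP-HD1 (1.05 ± 0.11 and 0.40 ± 0.09), and both differences lost their call under normexp background correction, that of CFLAR also under median scaling and the methods' t-test. CD40, a TNF receptor family member, rose in SUP-HD1 only (0.52 ± 0.11) and was not detected in L-540, and its call was lost under normexp correction and the methods' t-test. The MCL1 difference was 0.38 without L-540 AEZS-136 replicate 1, and that of CD40 was -0.51, -0.50 and -0.44 without L-540 control replicate 3 and SUP-HD1 AEZS-136 replicates 1 and 2, none of them called.

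FOXO targets responded in SUP-HD1. Of 15 tested genes that PI3K signaling is known to hold down, 8 rose and 0 fell in SUP-HD1, 4 rose and 0 fell in L-540, and 6 differed (40%), all more positive in SUP-HD1. The median response was 0.49 in SUP-HD1 and 0.10 in L-540. KLF2, a transcription factor of lymphocyte quiescence, read 7.65, 7.98 and 7.94 in SUP-HD1 controls and 9.10, 9.08 and 8.99 after treatment. In L-540 it read 7.29, 7.26 and 7.25 and then 7.39, 7.35 and 7.37, a change with a 95% interval of -0.08 to 0.28 (difference -1.10 ± 0.12, adjusted p = 1.7e-06). FOXO3 itself rose from 9.70, 9.72 and 9.69 to 10.62, 10.91 and 10.85 in SUP-HD1, and the L-540 response of 0.36 ± 0.10 was below the size limit. The other FOXO3 probe had no called difference. IRS2, the insulin receptor substrate, TXNIP, which restrains glucose uptake, and YPEL3 rose by 0.62 ± 0.09, 0.52 ± 0.08 and 0.67 ± 0.10 in SUP-HD1, and L-540 controls detected none of these 3 transcripts. CDKN1B, the cyclin-dependent kinase inhibitor p27, rose by 0.49 ± 0.10 in SUP-HD1 with 0.01 ± 0.10 in L-540, and its difference was not called in 5 of the alternative settings, 2 of which left out L-540 control replicate 1 (-0.41) or SUP-HD1 AEZS-136 replicate 1 (-0.41). The other CDKN1B probe had no called difference. The YPEL3 call was lost under normexp correction. BCL6 and ARRDC3 rose in L-540 alone without a called difference, and TRIB1 and KLHL24 rose in both lines. The TXNIP promoter is shown as that of a called member that holds the forkhead element GTAAACAA (in capitals, searched on both strands), which 0.954% of all windows hold.
TXNIP (chr1:145996530-145996829, minus strand): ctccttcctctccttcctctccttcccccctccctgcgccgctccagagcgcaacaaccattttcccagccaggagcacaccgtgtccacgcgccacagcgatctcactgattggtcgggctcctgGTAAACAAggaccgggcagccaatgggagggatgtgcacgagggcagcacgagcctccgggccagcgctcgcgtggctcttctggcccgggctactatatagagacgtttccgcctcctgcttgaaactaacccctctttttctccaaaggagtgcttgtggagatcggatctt
The match lies at position -124, and it is in 1 of the 2 annotated TXNIP start windows.

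The integrated stress response was induced in both lines, and several of its genes rose further in L-540. Of 17 tested genes of the ATF4 and stress response list, 13 rose in L-540 and 14 in SUP-HD1, and none fell. The response was more positive in L-540 for 8 of them and more negative for 1 (52.9%). DDIT3, the stress transcription factor CHOP, rose from 7.31, 7.39 and 7.35 to 10.32, 10.69 and 10.42 in L-540 and from 7.41, 7.23 and 7.40 to 9.44, 9.28 and 9.23 in SUP-HD1, an 8.74-fold and a 3.93-fold rise from similar baselines. TRIB3 rose by 2.67 ± 0.09 and 1.58 ± 0.09, PPP1R15A, the phosphatase subunit GADD34, by 2.86 ± 0.09 and 2.12 ± 0.09, and ATF4 itself by 1.46 ± 0.08 and 0.80 ± 0.08. The serine synthesis enzyme PSAT1 ran against the rest, at 0.57 ± 0.09 in L-540 and 1.08 ± 0.09 in SUP-HD1. ASNS, CEBPG and SHMT2 rose in both lines with no called difference. Of the 3 ATF4 probes 2 differed, and the lowest difference among them was 0.04. The called differences of DDIT4 and CEBPB were lost in several settings and that of PSAT1 under normexp correction. INHBE, which encodes an activin subunit and is known as a stress-induced gene, had the largest SUP-HD1-only rise. SUP-HD1 controls read 8.15, 8.09 and 8.23 and treated arrays 10.41, 10.37 and 10.38 (4.68-fold), while L-540 read 6.79, 6.90 and 6.78 and 7.03, 6.88 and 6.86, detected on 1 of its 6 arrays.

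Cell cycle genes fell in both lines, many of them further in L-540. Among 20 mitotic genes, 19 fell in L-540 and 20 in SUP-HD1, and 8 differed (40%), all more negative in L-540, with median responses of -1.09 and -0.75. CDC20, an activator of the anaphase-promoting complex, fell from 12.16, 12.21 and 11.99 to 10.31, 10.55 and 10.57 in L-540 and from 12.10, 12.03 and 11.98 to 11.26, 11.28 and 11.11 in SUP-HD1. CCNA2, cyclin A, fell in both (-1.88 ± 0.09 and -1.36 ± 0.09), and its called difference was lost under normexp correction. Among 19 DNA replication genes, 18 fell in L-540 and 14 in SUP-HD1, and 10 were more negative in L-540 (52.6%), with medians of -1.13 and -0.62. MCM10, which helps to start replication forks, was the only one with a called difference that fell in L-540 alone. It went from 8.52, 8.23 and 8.37 to 7.37, 7.51 and 7.37 in L-540, against 9.24, 9.48 and 9.28 and 9.16, 9.09 and 9.34 in SUP-HD1. GINS2, a part of the replicative helicase, fell in both (-1.35 ± 0.12 and -0.41 ± 0.12). RRM2, MCM4 and PCNA fell in both lines without a called difference, and the other probe of MCM10 and of UNG had no called difference. Of 12 cell cycle brakes and related genes 3 differed (25%, against 17.3% of all genes). GADD45A, a growth arrest gene, rose in both lines (1.56 ± 0.07 and 0.63 ± 0.07), as did CDKN1A, the inhibitor p21, by 1.0 ± 0.08 and 0.51 ± 0.08, with its other probe at a difference of -0.31 that was not called. Under normexp correction the CDKN1A call was lost. The fall of MYC (-0.64 in L-540 and -0.86 in SUP-HD1) had no called difference. MYB, a transcription factor of immature and cycling blood cells, was picked after its values were seen. It fell from 9.98, 9.89 and 10.12 to 8.79, 8.52 and 8.75 in L-540 and read 8.96, 9.22 and 9.05 and then 9.47, 9.42 and 9.50 in SUP-HD1, so that the lines exchanged order.

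ERK feedback and immediate early genes showed no shared direction. Of 18 tested genes 3 rose and 3 fell in L-540, 1 rose and 2 fell in SUP-HD1, and 4 were more positive and 2 more negative in L-540 (33.3%). The gene that rose in SUP-HD1 was ATF3, also counted in the stress response list, with 1.42 ± 0.09 in L-540 and 0.70 ± 0.09 in SUP-HD1. DUSP5, a nuclear phosphatase of ERK, rose from 10.18, 10.13 and 10.21 to 11.65, 11.44 and 11.72 in L-540. In SUP-HD1, where it was near background, it read 7.28, 7.30 and 7.44 and 7.01, 7.57 and 7.39. The cytoplasmic ERK phosphatase DUSP6 had responses of 0.32 (L-540) and -0.21 (SUP-HD1), with a called difference and neither response called. SPRY1, an inhibitor of receptor tyrosine kinase signaling, fell in L-540 (-0.58 ± 0.08) and was detected on no SUP-HD1 array, so no response could be measured there. FOSB rose by 0.89 ± 0.08 in L-540 from a level that 1 of 3 control arrays detected, and SUP-HD1 controls did not detect it. SPRED2, detected on all 12 arrays, stayed within 0.2 of zero in both lines. EGR1, FOS, FOSL1 and SPRED1 were at or near background in controls of at least 1 line, where a fall could not be measured. None of them had a called response in either line.

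Interferon-stimulated genes differed for 6 of 21 (28.6%), all more positive in L-540, with 5 rising in L-540 and 2 falling in SUP-HD1. ISG15, a ubiquitin-like modifier, read 10.09, 10.33 and 10.38 in L-540 controls and 11.31, 11.28 and 11.10 after treatment, and 7.99, 7.92 and 8.16 and 8.22, 8.04 and 7.82 in SUP-HD1. GBP2 and IRF7 also rose in L-540 only (0.58 ± 0.09 and 0.67 ± 0.10), ISG20 fell in SUP-HD1 only (-0.44 ± 0.09), and IFI6 differed with no call in either line (0.46 ± 0.13). GBP1 fell in SUP-HD1 (-0.52 ± 0.09) and was not detected on L-540 control arrays, so that a fall there could not be measured. IRF7 was detected on 1 of 3 SUP-HD1 control arrays. For each of IRF7, GBP1 and IFI6, 1 of 2 probes differed. Outside ISG15 each of the 6 calls was lost in at least 1 setting, and under median scaling the list count was 2. In the class II MHC list 3 of 10 genes differed (30%), all more negative in L-540. The transactivator CIITA fell from 7.63, 7.78 and 7.81 to 7.13, 7.07 and 6.96 in L-540 and was near background in SUP-HD1, at 6.97, 6.98 and 7.13 in controls and 6.89, 6.83 and 6.92 after treatment. HLA-DRA, the class II alpha chain, fell in L-540 (-0.68 ± 0.09), with -0.21 ± 0.09 in SUP-HD1, and its call was lost under normexp correction and the methods' t-test. The class I list had 3 small differences of 14 (21.4%, near the 17.3% of all genes) for TAP1, TAP2 and HLA-E. None of these kept its call under normexp correction, and 1 of 2 TAP2 probes differed.

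Of 11 metallothionein and zinc-handling genes named in the annotation, 6 were tested and 2 differed, both more negative in L-540 (33.3%). Besides MT2A, MT1X fell from 10.38, 10.40 and 10.75 to 9.50, 9.88 and 9.45 in L-540, with 10.43, 10.05 and 10.57 and 10.45, 10.19 and 10.00 in SUP-HD1, and its call was lost under the methods' t-test like that of MT2A. The zinc exporter SLC30A1 and the metal sensor MTF1 had no called response in either line, and MT1G was detected on no L-540 array. Metallothionein transcripts are close in sequence, and a probe may read more than 1 of them. The promoters of the genes that fell are printed to show TGCACNC, 1 form of the core of the metal response element, in capitals on either strand. MTF1 binds this element. Cores with G in place of the A were not searched and are not marked.
MT2A (chr16:56608334-56608633, plus strand): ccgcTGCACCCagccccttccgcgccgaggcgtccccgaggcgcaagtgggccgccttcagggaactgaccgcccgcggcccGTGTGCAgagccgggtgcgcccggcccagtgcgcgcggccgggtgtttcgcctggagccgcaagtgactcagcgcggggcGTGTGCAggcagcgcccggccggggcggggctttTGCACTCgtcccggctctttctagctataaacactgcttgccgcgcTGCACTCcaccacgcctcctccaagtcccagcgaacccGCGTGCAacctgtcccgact
MT1X (chr16:56682220-56682519, plus strand): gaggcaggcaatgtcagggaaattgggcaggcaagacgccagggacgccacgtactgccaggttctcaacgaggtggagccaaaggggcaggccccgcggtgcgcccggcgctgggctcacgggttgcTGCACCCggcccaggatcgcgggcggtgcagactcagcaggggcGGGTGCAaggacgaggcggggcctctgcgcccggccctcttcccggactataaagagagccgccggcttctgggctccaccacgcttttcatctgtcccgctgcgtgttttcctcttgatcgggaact
MT2A holds 6 matches to this form and MT1X 2, where 12.1% of all windows hold at least 1, 1.61% at least 2 and 0.0199% at least 6. In the antioxidant list 6 of 17 genes differed (35.3%). CAT, the catalase, rose in SUP-HD1 only, from 8.31, 8.10 and 8.39 on the control arrays to between 8.78 and 9.07 on the treated ones, with 8.27, 8.16 and 8.15 and 7.97, 7.96 and 8.11 in L-540, and 1 of its 2 probes differed. HMOX1, the heme oxygenase, rose by 0.83 ± 0.11 in L-540 and changed by 0.27 ± 0.11 in SUP-HD1, and SQSTM1, the autophagy adaptor p62, rose by 1.24 ± 0.10 and 0.76 ± 0.10. The HMOX1 and SQSTM1 calls, and those of GPX1 and SRXN1, were lost under the methods' t-test, which left 2 of the 17. Without L-540 control replicate 3 the HMOX1 difference was 0.46 and not called.

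Each of the remaining lists held 3 or fewer differing genes. Of 19 genes of glycolysis and hypoxia 1 differed (5.26%): ANKRD37 fell in L-540 (-0.74 ± 0.09) and changed by -0.15 ± 0.09 in SUP-HD1. LDHA, ENO1, PGK1 and HK2 fell in both lines. Without SUP-HD1 control replicate 1, 3 of the 19 differed. Of 11 tested genes of necroptosis and the JNK pathway 0 differed under limma, and 2 did when SUP-HD1 control replicate 2 was left out. MLKL, the executioner of necroptosis, fell in both lines, at -0.75 ± 0.09 in L-540 and -1.14 ± 0.09 in SUP-HD1 (difference 0.39 ± 0.13, adjusted p = 0.053, 95% interval 0.11 to 0.67). Of 8 T lineage genes 3 differed (37.5%, against 17.3% of all genes). PRF1, the pore-forming protein perforin, rose from 10.03, 9.93 and 10.06 to 11.50, 11.47 and 11.41 in L-540 and was detected on no SUP-HD1 array. CD8A rose in SUP-HD1 (0.49 ± 0.08) and was detected on no L-540 array. GATA3 rose in SUP-HD1 only (0.60 ± 0.10), and its called difference was lost in 8 settings. Of 5 B lineage genes 1 differed (20%, near the share of all genes): BLK, a B cell kinase, fell in L-540 (-0.56 ± 0.08) and was not detected in SUP-HD1. Of 11 Hodgkin cell line markers 3 differed (27.3%, against 17.3% of all genes). The costimulatory ligand CD86 rose by 1.61 ± 0.10 and 0.88 ± 0.10, with 1 of its 3 probes differing, FUT4 rose in SUP-HD1 only (0.43 ± 0.08), and CD274, the PD-1 ligand, differed by 0.46 ± 0.11 with no call in either line. Without SUP-HD1 AEZS-136 replicate 3 the CD274 difference was just under the limit of 0.4, and the FUT4 call was lost under median scaling. Of the 3 tested markers of other cells 0 differed, and 1 did when each line was normalized on its own.

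The L-540-only rises with the largest difference were H4C14, SHBG, SNHG12, LPIN1, IL20RB and SCD. SHBG, which encodes the sex hormone-binding globulin, read 7.20, 7.10 and 7.18 in L-540 controls and 9.71, 9.33 and 9.35 after treatment, and was detected on no SUP-HD1 array. IL20RB, a receptor chain for interleukins of the IL-20 group, read 8.11, 8.17 and 8.08 and 10.11, 10.14 and 9.79, and 1 of the 6 SUP-HD1 arrays detected it. Without background correction, these were rises of 4.93-fold for SHBG, from controls near background, and 3.73-fold for IL20RB. Among L-540-only falls picked after seeing their values because they are not small RNAs were NEFH, a neurofilament chain (-1.87 ± 0.10), APOBEC3B, a cytidine deaminase (-1.57 ± 0.10), and CDCA7, which is known to respond to MYC (-1.16 ± 0.09). SUP-HD1 detected APOBEC3B on no array and NEFH on 1 of 3 control arrays. CDCA7 averaged 11.67 in SUP-HD1 controls and 11.68 in L-540 controls and changed by 0.25 ± 0.09 there. By size of the difference, the SUP-HD1-only rises after INHBE were MIAT, H2AB1, PPP2R3C and ALPK2. MIAT, a long noncoding RNA, had similar control levels (8.26, 8.19 and 8.17 in L-540, 8.33, 8.12 and 8.16 in SUP-HD1) and rose to 9.86, 9.53 and 9.30 in SUP-HD1, with 8.15, 8.34 and 8.22 in L-540. H2AB1, a histone variant with near-identical copies on chromosome X, rose by 1.36 ± 0.11, and both of its probes rose. ALPK2, a kinase gene, rose from 11.38, 11.41 and 11.27 to 12.46, 12.44 and 12.64 and was not detected in L-540. By the same measure, the SUP-HD1-only falls after CCL2 were NAPSB, ID1, NAPSA and CHST4, none of which L-540 controls detected. ID1, an inhibitor of differentiation, went from 8.19, 8.15 and 8.35 in SUP-HD1 controls to below detection, a fall of at least 2.46-fold. NAPSA, an aspartic protease, fell (-1.31 ± 0.09), as did NAPSB, its transcribed pseudogene copy (-1.78 ± 0.11), so that signal shared between these sequences cannot be told apart. Among opposite probes picked after their values were seen, both probes of S100A10, an annexin-binding protein, rose in L-540 and fell in SUP-HD1. The probe with the larger difference read 11.54, 11.35 and 11.36, then 12.09, 12.20 and 12.19, in L-540 and 10.57, 10.65 and 10.38, then 9.56, 9.44 and 9.53, in SUP-HD1. CBX5, the heterochromatin protein HP1 alpha, fell in SUP-HD1 (-1.20 ± 0.09) and rose by 0.41 ± 0.09 in L-540.

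Small noncoding RNAs gave the largest negative differences of the tested probes. These RNAs guide the modification of ribosomal and spliceosomal RNA or form the spliceosome itself. Of 184 tested probes for them, a group chosen after values were seen, 132 fell and 1 rose in L-540, 14 fell and 8 rose in SUP-HD1, and 121 were more negative and 1 more positive in L-540 (66.3%). In controls 117 of these probes were higher in L-540 and 2 in SUP-HD1, and the median response was -0.96 in L-540 and -0.09 in SUP-HD1. Median control levels were 8.09 in L-540 and 7.21 in SUP-HD1, which left little room for a fall in SUP-HD1. SUP-HD1 controls detected 41 of the 184 probes on no array, so a fall of these could not be measured there. SNORA80E, a box H/ACA RNA, read 11.76, 11.44 and 11.76 in L-540 controls and 7.26, 7.18 and 7.26 after AEZS-136, next to 7.32, 7.27 and 7.33 and 7.05, 7.08 and 7.10 in SUP-HD1. SNORA28, SNORA62, SNORA13, SCARNA8 and SNORA7B also fell in L-540 only, with responses from -4.24 to -3.54, and SNORA13 was detected on no SUP-HD1 array. The median over the 184 probes was 8.05 to 8.10 on the 3 L-540 control arrays when all 24 arrays were normalized together, 7.06 to 7.07 on treated L-540 arrays, 7.19 to 7.21 on SUP-HD1 controls, and between 6.95 and 7.28 on the arrays of KM-H2 and L-428, the lines of the study that resist cell death. The U1 spliceosomal RNAs moved in opposite directions: RNU1-3 fell from 11.75, 11.84 and 11.72 to 8.61, 8.79 and 8.41 in L-540 and rose from 10.08, 9.50 and 9.75 to 10.93, 10.88 and 10.61 in SUP-HD1. RNVU1-7, RNVU1-18, RNU1-1, SNORD3C and SNORD3D, the last 2 copies of the U3 RNA, followed the same pattern. Copies of U1 and of U3 are nearly identical in sequence, so these 6 probes are not separate observations. Most small RNAs are not known to carry poly(A) tails, and the cRNA was made with a kit that primes on such tails. What part the labelling of these RNAs had in the result was not tested.

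Most probes for genes that host snoRNAs in their introns rose. Of 20 probes for snoRNA host and related noncoding RNAs, again chosen after values were seen, 16 rose and 1 fell in L-540, 14 rose and 1 fell in SUP-HD1, and 13 were more positive in L-540 (65%). SNHG12 read 8.10, 7.97 and 7.85, then 10.20, 10.47 and 10.11, in L-540 and 7.24, 7.37 and 7.20, then 7.44, 7.51 and 7.46, in SUP-HD1, where its change (0.20 ± 0.09) was not called. EPB41L4A-AS1 rose by 3.47 ± 0.08 and 1.85 ± 0.08, and SNHG15 by 2.59 ± 0.08 and 0.88 ± 0.08. The median of the treated arrays was 11.4 to 11.6 in L-540 and 9.54 to 9.65 in SUP-HD1, and KM-H2 (11.3 to 11.6) and L-428 (11.2 to 11.3) lay with L-540. Histone probes, most of which read mRNAs that normally end without a poly(A) tail, were more negative in L-540 for 39 of 68 and more positive for 4 (63.2%). In L-540 32 fell and 9 rose, and in SUP-HD1 1 fell and 17 rose. The median control level was 7.83 in L-540 and 6.95 in SUP-HD1. SUP-HD1 controls detected 27 of the 68 probes on no array, so a fall of these could not be measured there. H2AC20, H2AC18 and H2AC19, near-identical H2A genes, fell in L-540 (-0.99 ± 0.11, -0.94 ± 0.09 and -0.82 ± 0.09) and rose in SUP-HD1 (0.71 ± 0.11, 0.74 ± 0.09 and 0.77 ± 0.09). H4C14, a histone H4 gene, was the largest L-540-only rise, from 7.52, 7.85 and 7.81 to 10.09, 10.09 and 10.14, with 7.32, 7.22 and 7.09 and 7.02, 7.12 and 7.05 in SUP-HD1. The 3 L-540 control arrays had the highest histone medians of the 24 arrays too, at 7.71 to 7.86. One of the 4 RPL32 probes fell in L-540 (-2.81 ± 0.10) and the other RPL32 probes had no called difference.

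**Figure D4:**
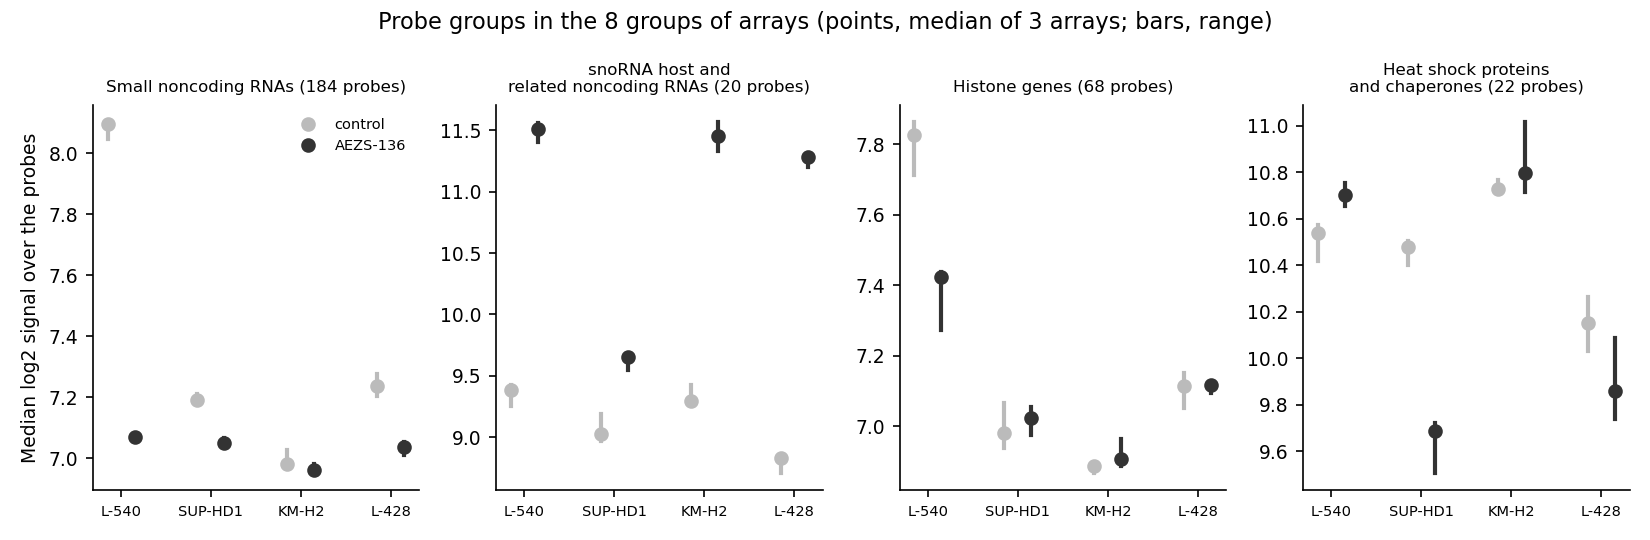
Median log2 signal over the probes of 4 groups chosen after their values were seen, in control (grey) and AEZS-136 (black) arrays of the 4 lines, with all 24 arrays normalized together; points are the median of 3 arrays and bars their range. L-540 controls stand highest for small noncoding RNAs (8.05 to 8.10) and histones, and treated SUP-HD1 stands lowest of the treated arrays for the snoRNA hosts and the chaperones.

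Heat shock proteins and chaperones fell in SUP-HD1. Of 22 probes in this group, chosen after values were seen, 16 fell and 0 rose in SUP-HD1, 6 fell and 1 rose in L-540, and 12 were more positive and 1 more negative in L-540 (59.1%). Counted by gene, 10 of 15 differed, and 5 did with normexp background correction. HSPA1B, the inducible HSP70, rose from 10.30, 10.07 and 10.24 to 11.23, 11.06 and 11.40 in L-540 and fell from 9.56, 10.08 and 9.85 to 9.33, 9.33 and 9.34 in SUP-HD1. Signal from the near-identical HSPA1A transcript cannot be told apart from it. HSPA8, the constitutive HSC70, fell in SUP-HD1 (-0.99 ± 0.09), with -0.36 ± 0.09 in L-540, and both of its probes differed. CHORDC1, a cochaperone of HSP90, read 9.01, 9.34 and 8.74 in SUP-HD1 controls and 8.23, 8.01 and 8.58 after treatment, and 7.96, 8.08 and 7.87 and 8.24, 8.47 and 8.37 in L-540 (difference 1.14 ± 0.19, adjusted p = 0.00028). Its promoter is shown because it is one of the few with 3 units TTCNNGAA of the heat shock element (in capitals, both strands).
CHORDC1 (chr11:90223000-90223299, minus strand): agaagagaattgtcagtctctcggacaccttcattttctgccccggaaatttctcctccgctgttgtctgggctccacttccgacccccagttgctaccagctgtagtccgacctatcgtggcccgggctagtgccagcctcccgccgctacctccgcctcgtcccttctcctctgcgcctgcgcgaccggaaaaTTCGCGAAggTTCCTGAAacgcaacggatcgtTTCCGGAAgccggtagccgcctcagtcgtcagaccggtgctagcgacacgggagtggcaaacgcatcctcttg
At least 1 such unit is in 7.74% of all windows and 3 or more are in 0.0171% of them. The 3 units lie between positions -55 and -23 from the start. None of these motif matches was tested for binding.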

How the data were processed

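Total RNA of the cell lines (TRIzol and column purification) was amplified to biotin-labelled cRNA and hybridized to Illumina beadchips by the authors. The deposited intensity per probe came from BeadStudio, which the submitters' processing notes name with no version, without normalization, and the deposited detection value is a fraction from 0 to 1. The authors analysed such values after robust spline normalization with the lumi package in R, on the log2 scale, with a t-test per line. A deposited table of processed log2 values, each column of which matched its own array best (r of at least 0.998; column medians 6.79 to 6.80), was used here as an alternative, and its normalization and centring stay unknown.

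Intensities of the 12 arrays of L-540 and SUP-HD1 were taken to log2 without background correction and quantile-normalized. Probes with a detection value over 0.99 on at least 3 arrays were kept (17242 of 47323). limma 3.58.1 (R 4.3.3) fitted 4 group means, with 3 arrays each, 8 residual degrees of freedom and 10.9 prior degrees of freedom. The response in each line, their difference and the difference between controls were called where the p adjusted by Benjamini-Hochberg was under 0.05 and the log2 value was at least 0.4 in size. Tests were 2-sided. The median standard error was 0.088 for a response and 0.125 for a difference, and the number of arrays limits the precision. The procedure was run on simulated data with independent noise. The simulation held changes in L-540 only and no background floor, so it does not test the single-line calls of these data.

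Gene symbols came from the platform annotation: of the tested probes 13433 had 1 symbol, 3 several and 3806 none listed, and 13430 matched RefSeq by gene identifier. Gene counts used for each gene the tested probe with the highest mean level. Named probes were IER3, MT2A and CCL5, the 6 with the largest difference in each single-line or opposite class (1 gene symbol, treated and control arrays not overlapping), and in each gene list the 4 genes with the largest difference and any of opposite direction. Further list genes, MYB, NEFH, APOBEC3B, CDCA7, S100A10, CBX5, RPL32 and the groups of small RNAs, hosts, histones and chaperones were chosen after seeing their values. The members and gene lists were all chosen with earlier results of these data known. Some genes stand in more than 1 list and were counted in each. Promoter windows were read from RefSeq (GRCh38.p14) and searched for each motif on both strands. A fold given as "at least" sets the mean of the detected group against, per array of the other group, the higher of the probe's own signal and the lowest signal of a detected probe, averaged after normalization on the log2 scale. Other folds are ratios of signals without background correction.

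Alternatives were median scaling, quantile normalization within each line, cyclic loess, normalization and fit over all 24 arrays, normexp correction (offset 16), the authors' normalized values, no filter, a filter of 3 detected arrays in a group, the methods' t-test (for the difference, the same contrast without moderation), a replicate block, no minimum size and leaving out each array in turn. Recomputing control levels and gene list counts under them was added after seeing the data.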

Additional observations from a re-analysis of the deposited data

Results flagged for a closer look

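The difference between the responses of the lines was itself tested, and 2562 probes passed. Among the markers these were IER3 (-1.13) and MT2A (-0.86), each value being the L-540 minus the SUP-HD1 response on the log2 scale.

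Of the L-540-only probes with the largest differences, H4C14 (2.52), SHBG (2.29), SNHG12 (2.08), LPIN1 (1.94), IL20RB (1.93) and SCD (1.85) were more positive in L-540. SNORA80E (-4.19), SNORA28 (-4.14), SNORA62 (-3.79), SNORA13 (-3.69), SCARNA8 (-3.55) and SNORA7B (-3.54) were more negative. Of the SUP-HD1-only probes, INHBE (-2.13), MIAT (-1.32), both H2AB1 probes (-1.29 and -1.16), PPP2R3C (-1.22) and ALPK2 (-1.19) were more positive in SUP-HD1. CCL2 (1.98), both NAPSB probes (1.91 and 1.82), ID1 (1.49), NAPSA (1.30) and CHST4 (1.27) were more negative there. L-540 controls detected none of these falling probes, so a fall in L-540 could not be measured. Their difference is the SUP-HD1 fall alone. SHBG and SNORA13 were detected on no SUP-HD1 array and ALPK2 was not detected in L-540, so their response in that line could not be measured. In opposite directions moved RNU1-3 (-4.20), RNVU1-7 (-4.13), RNVU1-18 (-4.09), RNU1-1 (-3.58), SNORD3C (-3.26), SNORD3D (-3.19), LTA (-2.14), IL2RA (1.87), FASN (1.76) and PIM1 (-1.40).

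In the gene lists the same test passed 10 genes of DNA replication, 9 of the ATF4 and stress response list, 8 mitotic genes, 8 of sterol and fatty acid synthesis and 7 of the JAK-STAT list. It passed 6 each of the ERK feedback genes, FOXO targets, antioxidant genes and interferon-stimulated genes, and 5 each of the NF-kB targets and cytokines. It passed 3 each of the cell cycle brakes, class I and class II MHC genes, T lineage genes and Hodgkin markers, 2 metallothioneins, and 1 each of the glycolysis and B lineage genes. Of all genes 17.3% passed, and the list sizes are given above.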

How the results depend on the processing

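Of 145 named differences that were called, 108 kept their call in every alternative in which they were tested, and the sign of a called difference did not turn in any of them. The 2562 probes with a called difference became 1964 under median scaling, 1832 under the methods' t-test and 2612 under normexp background correction, of which 1950 were shared with the 2562. The methods' t-test called 1488 probes in SUP-HD1, 260 in SUP-HD1 only and 20 in opposite directions. Without a minimum size there were 7093 called probes in L-540, 5302 in SUP-HD1 and 192 in opposite directions, and normexp correction gave 6625, 4772 and 131. Leaving out 1 array at a time gave 2359 to 2639 differing probes, 3949 to 4211 changed probes in L-540, 2620 to 2792 in SUP-HD1, 1249 to 1378 in L-540 only, 415 to 526 in SUP-HD1 only and 45 to 58 in opposite directions, and 21 named differences, with sizes from 0.41 to 0.56, lost their call in at least 1 of these fits. The cause of these changes was not tested.

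With the replicate number within a line as a block, 2542 probes differed (1345 in L-540 only, 455 in SUP-HD1 only and 50 in opposite directions), and 2482 of them were shared. Deviations of same-numbered control and treated arrays correlated at 0.03, 0.14 and 0.05 in L-540 and at 0.10, -0.17 and -0.22 in SUP-HD1. So few pairs cannot tell whether same-numbered arrays share more than a number. The block ended the called difference of TAP2 among the named probes. Gene list counts moved by over 1.5 times in several settings: with normexp correction, NF-kB targets went from 5 to 2, cell cycle brakes from 3 to 1, class I MHC genes from 3 to 0 and chaperone genes from 10 to 5. Under the methods' t-test metallothioneins went from 2 to 0 and antioxidant genes from 6 to 2, under median scaling interferon genes went from 6 to 2, and without a minimum size Hodgkin markers went from 3 to 6. Signals not above background give only a bound for the response of that line.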
